A study of Mus musculus with 6 samples.

Results

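The Notch receptors, their ligands and 2 of their target genes were examined in mouse skin on 6 arrays, 3 wild-type and 3 knock-in. The members were Notch1 to Notch4, the ligands Jag1, Jag2 and Dll1, the DNA-binding effector Rbpj, and the targets Hes1 and Hey1. They were taken as every probe set (a group of array probes that read one transcript) whose only annotated gene symbol was one of these 10. These are 10 of the 18193 genes with a probe set of their own, and 20 of the 45037 probe sets that are not controls, from 1 for Dll1, Hes1 and Hey1 to 3 for Notch4, Jag1 and Rbpj. Skin was compared on a C57BL/6 background. Wild-type samples carry the genotype label WT, and knock-in samples the label KA with the source name KAB6. The labels do not name the altered gene, the promoter behind it, the age, the sex or the body site, and they do not say whether the samples were separate animals. What the p-values measure is thus the spread among 6 samples, which may be technical.

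Notch receptors are single-pass membrane proteins that bind Jagged or Delta ligands on a neighbouring cell. Binding lets ADAM proteases and gamma-secretase cut the receptor, and the freed intracellular part enters the nucleus and joins Rbpj on DNA, where repressor genes of the Hes and Hey families are switched on. In mouse skin Notch signalling is known for its part in the differentiation of suprabasal keratinocytes and in the upkeep of the hair follicle, and in vessels for the specification of arteries and the coverage by mural cells. Hes1 and Hey1 are helix-loop-helix repressors and standard readouts of the pathway.

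Values are MAS5 signals on a linear scale, which the authors had scaled to the same trimmed mean on every array. Signals of different probe sets are not on a common scale, so differences were tested only between arrays. Brighter and dimmer describe the signal alone, and a marker sum weights the brightest probe sets most. A probe set was tested if its signal lay above the array's own median (37.5 to 45.7) on at least 3 arrays. Of the 20 member probe sets 17 were tested, and each of the 10 genes kept at least 1. Replicates resembled each other (Pearson's r over the tested probe sets from 0.976 to 0.984 within a group and from 0.899 to 0.929 between groups). Xist, the RNA of the inactive X chromosome, had a signal of 29.7 ± 2.44 on the wild-type and 3729.7 ± 282 on the knock-in arrays (SD, n = 3), and the Y-linked Eif2s3y 687 ± 42.6 and 5.04 ± 0.544. A difference of sex and one of genotype cannot be told apart in any comparison below. The keratinocyte genes that define skin were bright in both groups, with Krt5 signals of 5713 ± 166 and 8241 ± 661 and Krt10 signals of 10944 ± 1289 and 10106 ± 2515.

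The sequences below are the promoter windows of Notch1, Jag1 and Rbpj, shown because probe sets of all 3 genes were lower in knock-in. They are from RefSeq (GRCm38.p6), on the strand of the gene, from 250 bases before to 50 bases after the annotated start. Capitals mark TGGGAA, the core of the Rbpj binding motif, read on both strands (TTCCCA on the opposite one). The windows lie at chr2:26503773-26504072 (minus strand), chr2:137116471-137116770 (minus strand) and chr5:53590096-53590395 (plus strand).
Notch1: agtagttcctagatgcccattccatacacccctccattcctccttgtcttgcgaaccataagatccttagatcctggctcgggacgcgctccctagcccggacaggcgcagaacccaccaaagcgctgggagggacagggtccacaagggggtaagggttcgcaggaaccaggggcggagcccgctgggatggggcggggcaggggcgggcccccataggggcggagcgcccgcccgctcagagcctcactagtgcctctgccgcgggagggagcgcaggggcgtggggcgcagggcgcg
Jag1: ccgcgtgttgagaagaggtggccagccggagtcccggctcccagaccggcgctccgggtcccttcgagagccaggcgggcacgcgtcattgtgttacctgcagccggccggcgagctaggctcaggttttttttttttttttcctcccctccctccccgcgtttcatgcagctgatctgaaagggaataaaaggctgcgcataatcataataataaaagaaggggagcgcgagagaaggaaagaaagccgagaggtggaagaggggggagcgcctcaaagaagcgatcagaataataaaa
Rbpj: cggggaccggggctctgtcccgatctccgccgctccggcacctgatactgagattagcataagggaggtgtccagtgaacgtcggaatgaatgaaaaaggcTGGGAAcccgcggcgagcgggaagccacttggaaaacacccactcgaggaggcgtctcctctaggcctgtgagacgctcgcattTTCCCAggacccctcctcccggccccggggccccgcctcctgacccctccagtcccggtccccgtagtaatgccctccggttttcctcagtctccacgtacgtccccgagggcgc

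The Rbpj window holds the core motif 2 times, once on each strand, and the Notch1 and Jag1 windows hold it 0 times. RefSeq windows were matched for 8 of the 10 members. The motif occurred in 2 of their 10 windows, and both are overlapping windows of Rbpj. Of 32841 windows of this length over all genes, 8394 (25.6%) hold it. The longer form GTGGGAA, which contains the core, occurs in 6.38% of all windows and the E-box CACGTG in 7.15%, and neither is in a member window. These matches describe letters and are no evidence of binding.

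Members that differed were mostly lower in knock-in skin. Of 17 tested probe sets, 9 fell, 1 rose and 7 did not pass (limma on log2(signal + 16), Benjamini-Hochberg adjusted p under 0.05 over 23153 probe sets). Over all probe sets tested, 17.3% were called lower and 13.0% higher. The median log2 difference (knock-in minus wild-type) was -0.34 for the members and -0.06 for all. The genes with at least 1 probe set that fell were Notch1, Notch3, Jag1, Jag2, Rbpj and Hes1, the gene with one that rose was Notch4, and Notch2, Dll1 and Hey1 had none past the threshold. In 4 of the 6 genes with a probe set that fell, another probe set of the gene did not pass. With 1 probe set per gene, the brightest, 5 of 10 members fell and 1 rose, beside 16.3% and 14.8% of 11683 genes. The wild-type and knock-in arrays did not overlap for 10 probe sets lower in knock-in and 1 higher, beside 27.1% and 19.4% of all tested. The split depends on how the arrays are scaled. With each array centred on its median, which moved the median difference of all probe sets from -0.06 to 0.07, 4 member probe sets fell, 2 each of Notch1 and Jag1, and 1 rose. Over all probe sets that centring turned 4011 lower and 2999 higher calls into 2501 lower and 4423 higher. With quantile normalization 8 member probe sets fell and 1 rose, beside 3463 lower and 3211 higher calls over all probe sets.

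**Figure D1:**
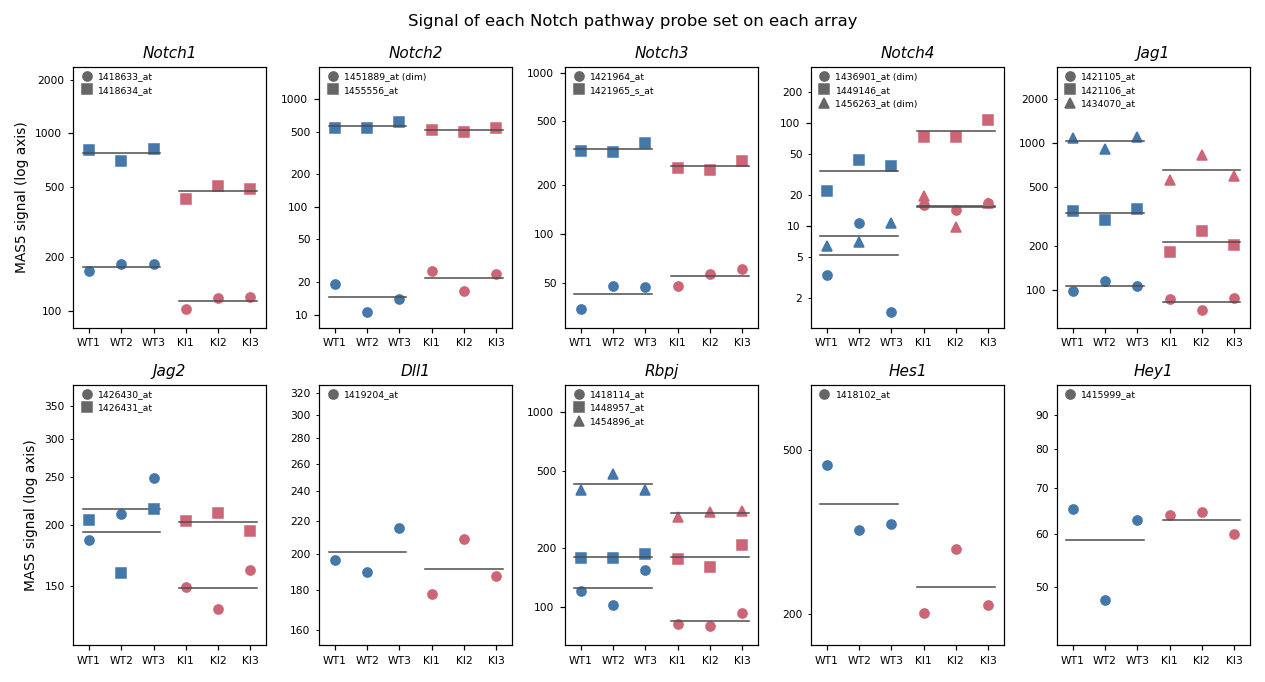
Each panel plots the MAS5 signal (log axis) of every probe set of one member on the 3 wild-type (blue) and 3 knock-in (red) arrays, with a marker shape per probe set and lines at the group means. Both Notch1 probe sets and all 3 of Jag1 lie lower on every knock-in array, and the brightest Notch4 probe set lies higher.

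Of the 4 receptors, Notch1, a receptor of epidermis and hair matrix, fell on both of its probe sets. On probe set 1418634_at its signals were 806, 695 and 814 on the wild-type arrays and 426, 508 and 484 on the knock-in arrays. The groups were far apart, with the lowest wild-type array above the highest knock-in array. The mean fell by 38.7%, from 771 ± 66.3 to 473 ± 41.9 (SD, n = 3), a log2 difference of -0.69 ± 0.11 (SE, limma adjusted p = 0.001724). Probe set 1418633_at read 167, 183 and 184 against 103, 118 and 119.9, again without overlap. Its log2 difference was -0.58 ± 0.11 (adjusted p = 0.005291). Both Notch1 calls held in each alternative that kept the probe set (18 and 17 of 19). In bulk skin, fewer cells of a type and less RNA per cell cannot be told apart, here or in the results that follow.

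Notch2 differed by less than its test could call. Probe set 1455556_at had signals of 543, 534 and 618 in wild-type and 522, 500.1 and 542 in knock-in. The groups overlapped, and the log2 difference was -0.11 (95% interval -0.33 to 0.11, adjusted p = 0.4186). A second Notch2 probe set, 1451889_at, lay below the median on every array (10.7 to 19.4 in wild-type, 16.5 to 25.3 in knock-in) and was not tested.

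Notch3, a receptor known from vascular smooth muscle and pericytes, gave opposite signs on its 2 probe sets. Probe set 1421965_s_at read 326, 322 and 368 in wild-type and 258, 249 and 284 in knock-in, without overlap. It fell by 0.34 ± 0.11 on the log2 scale (adjusted p = 0.03604). Leaving out any one array other than wild-type replicate 1 ended the call (adjusted p from 0.05072 to 0.1269), within a range from 0.024 to 0.2045 over the alternatives. Probe set 1421964_at was dim, at 34.1, 47.6 and 46.6 in wild-type and 47.6, 56.4 and 60.8 in knock-in. Its knock-in values lay mostly higher but met the wild-type range, with a log2 difference of 0.27 (95% interval -0.09 to 0.64, adjusted p = 0.225).

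Notch4, a receptor of blood vessel endothelium, was the member that rose. Its brightest probe set, 1449146_at, read 21.9, 43.8 and 38.4 in wild-type and 73.6, 73.1 and 108 in knock-in. All knock-in arrays lay above all wild-type arrays, and the log2 difference was 1.00 ± 0.21 (adjusted p = 0.007233). With an offset of 64 in place of 16 the difference was 0.59. This probe set lay above the median on 3 arrays, those of the knock-in group, so it entered the test through the group in which it was high. The other Notch4 probe sets were near the floor and were not tested. Probe set 1436901_at read 3.34, 10.9 and 1.48 against 16.1, 14.5 and 16.7, and 1456263_at read 6.43, 6.97 and 10.7 against 19.6, 9.79 and 16.7. The former was apart between the groups and the latter overlapped.

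Among the ligands, Jag1, a ligand of the hair follicle and the epidermis, was lower on all 3 of its probe sets. Probe set 1434070_at read 1087, 918 and 1099 in wild-type and 559.7, 826 and 598 in knock-in. Knock-in replicate 2 stood well above the other knock-in arrays and still below the lowest wild-type array. The mean fell by 36.1%, from 1035 ± 101 to 661 ± 144 (SD, n = 3), a log2 difference of -0.65 ± 0.15 (adjusted p = 0.01038). Probe set 1421106_at read 347, 300.2 and 357 against 182, 251 and 203, a log2 difference of -0.63 ± 0.13 (adjusted p = 0.007749). Here too knock-in replicate 2 was the highest of its group. The dimmer 1421105_at read 98.1, 115 and 107 against 87.4, 73.4 and 88.4, and although its groups did not overlap it did not pass (-0.31 ± 0.13, adjusted p = 0.09676).

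Jag2, a second Jagged ligand, was split between its probe sets. Probe set 1426430_at read 186, 211 and 249 in wild-type and 149, 134 and 162 in knock-in and fell by 0.49 ± 0.13 on the log2 scale (adjusted p = 0.02233). Leaving out wild-type replicate 3 (0.08769), knock-in replicate 1 (0.05637) or knock-in replicate 2 (0.06991) ended the call, within a range from 0.01187 to 0.08769. Probe set 1426431_at read 204, 159.8 and 215 against 204, 212 and 194. Its groups overlapped, with a log2 difference of 0.08 (95% interval -0.21 to 0.37, adjusted p = 0.6828). Dll1, a Delta-type ligand, had signals of 196, 189.7 and 216 in wild-type and 178, 209 and 187 in knock-in. They overlapped, with a log2 difference of -0.06 (95% interval -0.32 to 0.19, adjusted p = 0.6919).

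**Figure D2:**
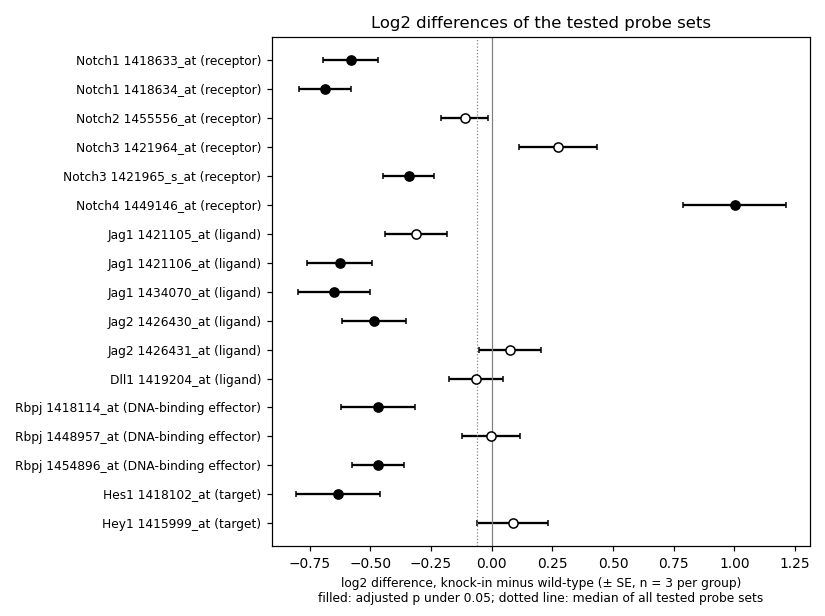
The plot gives the log2 difference (knock-in minus wild-type, ± SE, n = 3 per group) of the 17 tested probe sets. Filled points had an adjusted p under 0.05, the dotted line is the median of all tested probe sets (-0.06), and the points run from -0.69 for Notch1 to 1.00 for Notch4.

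Rbpj, the protein through which all Notch receptors act on DNA, fell on 2 of its 3 probe sets. Probe set 1454896_at read 397, 479.8 and 399 in wild-type and 289, 308 and 309.6 in knock-in. The knock-in arrays were tightly grouped below all wild-type arrays, and the log2 difference was -0.47 ± 0.11 (adjusted p = 0.011, and 0.05907 with median centring, within a range from 0.008919 to 0.05907). Probe set 1418114_at read 120.4, 103 and 154 against 82.6, 80.2 and 93.7, with a log2 difference of -0.47 ± 0.15 (adjusted p = 0.04515). That call was lost without any one of the arrays other than wild-type replicate 2, with adjusted p from 0.06993 to 0.161, within a range from 0.02491 to 0.161. Probe set 1448957_at read 179.6, 178 and 187 against 177, 161 and 207 and was level between the groups (0.00, 95% interval -0.27 to 0.26, adjusted p = 0.9848). RefSeq lists pseudogenes of Rbpj in mouse, so which transcripts each of these probe sets reads is uncertain.

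Of the targets, Hes1 was lower and Hey1 was not called. Hes1 (1418102_at) read 460.2, 320.3 and 331 in wild-type and 201, 287 and 211 in knock-in. Wild-type replicate 1 stood above the rest of its group and knock-in replicate 2 above the rest of its own, and the groups did not overlap. The mean fell by 37.2%, from 371 ± 77.8 to 233 ± 47.2 (SD, n = 3), a log2 difference of -0.63 ± 0.17 (adjusted p = 0.02154). Leaving out wild-type replicate 1 (0.0541), knock-in replicate 1 (0.07181) or knock-in replicate 3 (0.0808) ended the call, within a range from 0.009501 to 0.0808. Hey1 (1415999_at) was dim, at 65.2, 47.9 and 62.7 in wild-type and 63.8, 64.6 and 60.0 in knock-in. The groups overlapped, with a log2 difference of 0.09 (95% interval -0.24 to 0.41, adjusted p = 0.6853).

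The probe sets of one gene were set against each other by their log2 ratio on each array, a comparison added after the data were seen. The 5 member genes with several tested probe sets gave 9 pairs. The ratio was apart between the groups for 4 pairs, in Notch3, Jag2 and Rbpj, beside 32.6% of the 13994 pairs over all genes. Each of these 4 had a two-sided exact permutation p of 0.1, the smallest that 3 against 3 arrays allow, and 0.225 after adjustment over the 9 pairs. For Jag2 the ratio of 1426430_at to 1426431_at went from 0.15 ± 0.25 to -0.42 ± 0.18 on the log2 scale (SD, n = 3). For Rbpj the ratio of 1448957_at to 1454896_at went from -1.16 ± 0.17 to -0.69 ± 0.17. For Notch3 the ratio of 1421964_at to 1421965_s_at went from -2.60 ± 0.18 to -1.98 ± 0.12. In Notch1 the 2 probe sets kept an overlapping ratio, and in Jag1 all 3 pairs did. Which parts of a transcript the probe sets read was not analysed here.

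**Figure D3:**
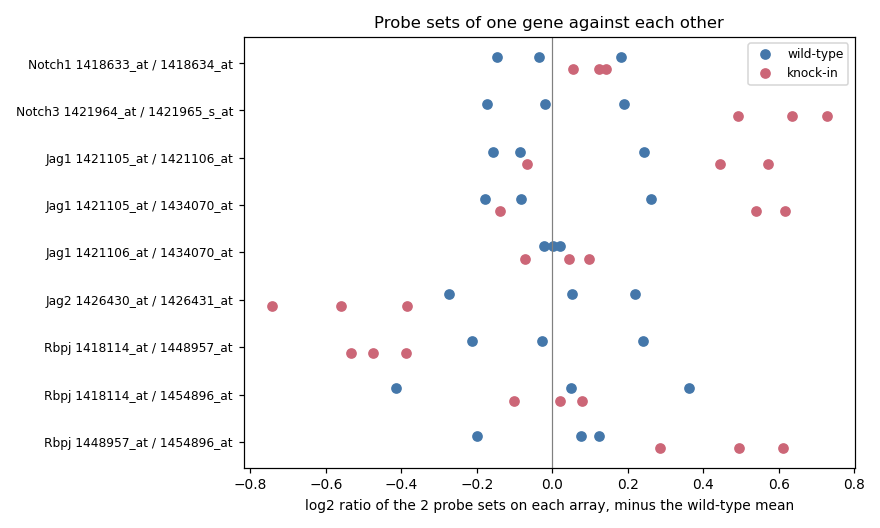
For each pair of tested probe sets of one member the plot shows the log2 ratio on every array, with the wild-type mean subtracted (blue wild-type, red knock-in). The red and blue points separate for the Notch3 pair, the Jag2 pair and both Rbpj pairs that include 1448957_at, and overlap for the other 5.

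Most other genes of the pathway did not pass. The list held 69 genes, of which 63 had 125 probe sets here and 50 had 89 that were tested. Of these 89 probe sets 13 fell, 3 rose and 73 did not pass, shares near or below those over all probe sets, and their median log2 difference was -0.12. With median centring 5 fell and 9 rose, and with quantile normalization 10 fell and 3 rose.

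Among 14 tested probe sets of further targets, 6 fell and 0 rose, beside 17.3% and 13.0% of all tested probe sets, with a median log2 difference of -0.40. Gata3, a factor of the inner root sheath that Notch also controls in T cells, went from 756 ± 89.0 to 357 ± 20.7 (-1.04 ± 0.11, adjusted p = 0.0002182). Ccnd1, a cyclin that drives entry into the cell cycle, went from 960.2 ± 149 to 446 ± 90.5 on 1417420_at (-1.09 ± 0.16). A second Ccnd1 probe set fell too, and 1417419_at did not pass (-0.52, adjusted p = 0.06014). Id3, an inhibitor of helix-loop-helix factors, fell by 0.49 ± 0.12 on the log2 scale, or 0.36 with median centring, where it was no longer called (adjusted p = 0.0747). Both tested probe sets of Heyl, a Hey family repressor named here after its values were seen, fell (-0.45 and -0.58, adjusted p = 0.0459 and 0.04691), and these calls ended under 9 of 17 and 9 of 16 alternatives. Among these were replicate 1 or 3 of either group left out (0.09942 to 0.1515 for 1438886_at, 0.09024 to 0.1346 for 1419302_at), wild-type replicate 2 left out for 1419302_at (0.07468), median centring (0.1492 and 0.1022) and quantile normalization (0.1298 and 0.1029). The tested probe sets of Nrarp (-0.35 and 0.06), Hes6 (-0.05 and -0.12), Cdkn1a (0.02 and -0.06) and Myc (0.31) did not pass. The probe sets of Hes2, Hes5, Hes7 and Hey2 were too dim to be tested.

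Of 15 tested probe sets of the machinery that cuts the receptors, 3 rose and 1 fell, beside 13.0% and 17.3% of all tested probe sets, with a median log2 difference of 0.18. Psen2, a catalytic subunit of gamma-secretase, rose from 119 ± 6.47 to 191 ± 7.39 (0.62 ± 0.11, adjusted p = 0.0028). Adam10, the sheddase that makes the first ligand-dependent cut, had 1 probe set that rose (1450104_at, 0.41 ± 0.13, adjusted p = 0.04645), while the brighter 1428103_at had a difference of -0.21. Adam10 probe set 1450105_at did not pass (0.32, adjusted p = 0.09313). Leaving out any one array other than wild-type replicate 1 ended the Adam10 call, with adjusted p from 0.06 to 0.1561. The third probe set that rose, named after its values were seen, was 1421858_at of the related sheddase Adam17 (0.34 ± 0.11, adjusted p = 0.04824), and that call ended with replicate 1 or 3 of either group left out (0.08388 to 0.1596). Adam17 probe sets 1421857_at and 1421859_at did not pass (0.25 and 0.17). Aph1b, another subunit of gamma-secretase, fell on 1456500_at (-0.49 ± 0.12, adjusted p = 0.01528). Leaving out wild-type replicate 3 (0.06502) or knock-in replicate 1 (0.0575) ended it, as did median centring (0.07001), and its other probe set, 1435793_at, did not pass (0.10, adjusted p = 0.6283).

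Among nuclear partners, 4 of 15 tested co-repressor probe sets fell and 0 rose, beside 17.3% and 13.0% of all tested probe sets, and all 4 belonged to Tle3 and Tle4, Groucho-type co-repressors that Hes proteins recruit. Tle4 went from 319 ± 19.6 to 204 ± 4.03 on 1450853_at (-0.61 ± 0.10, adjusted p = 0.002207). Tle3 went from 130.0 ± 10.1 to 76.2 ± 12.0 on 1458512_at (-0.67 ± 0.14, adjusted p = 0.006766). Tle3 probe sets 1419654_at (-0.38, adjusted p = 0.07819) and 1449554_at (-0.23, adjusted p = 0.1811) did not pass. The second Tle3 probe set that fell, 1419655_at, overlapped between the groups (-0.44, adjusted p = 0.04679), and its call ended under 10 of 18 alternatives (adjusted p from 0.01029 to 0.1788 over them). The second Tle4 probe set, 1425650_at, passed the filter on dim signals on 3 arrays only, those of wild-type skin (-0.56, adjusted p = 0.0177), and its call ended under 5 of 16 alternatives (0.006312 to 0.07217). Ctbp2, another co-repressor, had a difference of -0.28 that did not pass (adjusted p = 0.05477). Beside the same shares of all tested probe sets, 1 of 15 co-activator probe sets fell and 0 rose. It was 1434037_s_at of the acetyltransferase Kat2b (-0.40 ± 0.10, adjusted p = 0.01307), and Snw1 and Ep300 did not pass (-0.28 for both). Leaving out wild-type replicate 3 (0.05249) or knock-in replicate 3 (0.05631) ended the Kat2b call, as did median centring (-0.27, adjusted p = 0.08824). Its other tested probe set, 1450821_at, did not pass (-0.35, adjusted p = 0.05552).

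Beside 17.3% lower and 13.0% higher among all tested probe sets, 1 of 21 for ligand endocytosis and receptor trafficking fell and 0 rose. It was 1451818_at of Mib1, a ubiquitin ligase that lets ligands pull on the receptor (-0.54 ± 0.16, adjusted p = 0.03043), and its call was lost without any one of the arrays other than wild-type replicate 2 (adjusted p from 0.05086 to 0.1166). It was also lost with median centring (0.08813), quantile normalization (0.07848) and no filter on dim signals (0.06667), and the brighter Mib1 probe set, 1454740_at, did not pass (-0.16, adjusted p = 0.3232). Neurl1a (-0.47) and Numb (-0.33), an inhibitor of Notch, did not pass. Of 7 probe sets of the glycosyltransferases of the pathway, 0 passed in limma, beside the same 17.3% and 13.0%. An unadjusted p under 0.05 was reached by 1 of the 7, beside 9755 of all 23153 tested. The differences were -0.16 for Lfng, -0.14 for Mfng and 0.28 for Rfng. Of the other ligands only Dlk2 had tested probe sets, and it did not pass (0.28 on 1450005_x_at). The probe sets of Dll3, Dll4, Dlk1 and Dner were too dim to be tested.

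**Figure D4:**
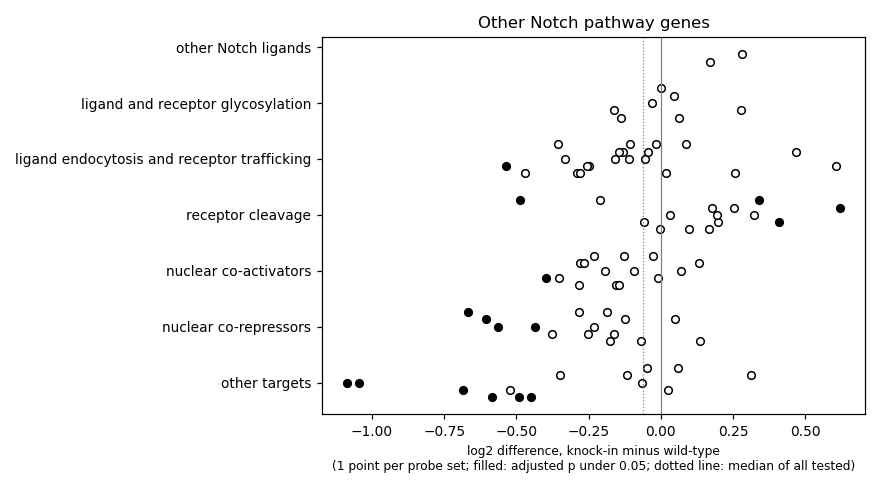
Each point is 1 tested probe set of another Notch pathway gene, by its role, at its log2 difference (knock-in minus wild-type). Filled points had an adjusted p under 0.05, and the dotted line is the median of all tested probe sets. Further targets and co-repressors hold 10 of the 13 filled points on the lower side.

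Markers of the follicle fell, as most of the called members did. All 9 hair cortex and matrix markers on the array fell, with a median log2 difference of -1.72. Their summed signal (brightest probe set per gene) lay between 21430 and 29890 in wild-type and between 4848 and 10810 in knock-in. Within the groups it was lowest on wild-type replicate 2 and highest on knock-in replicate 2, as were the inner root sheath and melanocyte sums. Of the 9 member probe sets that fell, 4 shared both of these. The plotted probe sets of Notch1, Jag1 and Hes1 are among these 4, with Jag1 1421106_at beside them. The other Notch1 probe set, 1418633_at, shared neither. Of the member probe sets that were not called, Jag2 1426431_at, Dll1 and Hey1 also shared both. The share over all tested probe sets was not counted. Krt34, Krt81 and Krt86, keratins of the hair cortex, had log2 differences of -1.61, -1.90 and -1.72. All 7 inner root sheath markers fell as well, with a median log2 difference of -1.17 and sums of 40850 to 50260 in wild-type and 16080 to 26980 in knock-in. Among them Krt25, Krt27 and the sheath protein Tchh had log2 differences of -0.74, -1.30 and -0.89. Gata3 is also on this list. The part of these markers in the lower Notch1, Jag1, Hes1, Jag2 and Rbpj signals was not tested.

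The keratinocyte layers in which Notch genes are also active did not follow one direction. Of 7 basal markers 3 rose and 1 fell, with sums of 19820 to 22490 in wild-type and 24270 to 28580 in knock-in. Krt14 and Krt5 rose by 0.73 and 0.52, and Krt15, which also marks follicle stem cells, fell by 1.17. Of 7 suprabasal markers 0 rose and 3 fell, with a median log2 difference of -0.54, and their sums overlapped (29170 to 33930 and 23470 to 33200). Those that fell were Dsg1a (-1.06), Dsc1 (-0.58) and Ivl (-0.54). The brightest, Krt1 (0.39), Krt10 (-0.14) and Lor (-0.17), did not pass, nor did Flg (-0.61).

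Vessel markers moved with Notch4. Of 8 blood endothelial markers 6 rose and 0 fell, with a median log2 difference of 1.10. Their summed signal was 617 to 781 in wild-type and 1631 to 1826 in knock-in. Tie1, 1 of the 6 that rose, passed the filter on 3 arrays only, those of the knock-in group. Emcn, Pecam1 and Egfl7, surface and secreted proteins of endothelium, rose by 1.92, 1.47 and 1.30. Of 9 mural cell markers, 8 of them tested, 4 rose and 1 fell, with sums of 3286 to 4002 and 4291 to 4618. The pericyte genes Rgs5 and Pdgfrb rose by 1.10 and 0.66, and Acta2, the actin of smooth muscle, did not pass (-0.18). The mural marker that fell was Cspg4 (-0.50), and Abcc9 (-0.06) and Myh11 (0.05) did not pass. The bright Notch3 probe set fell, and the dim one did not pass (0.27). The part of these markers in the Notch4 and Notch3 values was not tested.

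Other cell types also differed between the groups. All 7 neutrophil markers rose, with sums of 641 to 865 and 15960 to 20780, led by S100a8, S100a9 and Clec4d (4.26, 5.72 and 4.87). Of these 7, Clec4d, Csf3r, Cxcr2 and Mmp8 passed the filter on 3 arrays only, those of the knock-in group. Of 6 macrophage markers 3 rose, Lyz2 and Mrc1 (0.77 and 1.04) among them, with Csf1r at 0.07 and sums of 6006 to 9165 and 10300.0 to 15590. All 6 melanocyte markers fell, with sums of 2467 to 4925 and 1109 to 1787, among them Dct, Pmel and Mitf (-1.52, -1.24 and -0.56). Of 6 muscle markers 4 fell, Ckm and Myh4 (-1.05 and -1.75) among them, with Acta1 at 0.01 and sums of 31360 to 50000 and 18410 to 29430. Of 4 adipocyte markers, 1 rose (Cidec, 0.94), Fabp4 and Adipoq did not pass (0.26 and -0.32), and the sums overlapped. Of 5 T cell markers 2 were tested and 1, Cd3g, fell (-1.66), while Cd8a did not pass (-0.13), with sums of 214 to 249 and 93.5 to 137. Cd3g passed the filter on 3 arrays only, those of the wild-type group. The part of these cell types in the members' values was not tested.

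**Figure D5:**
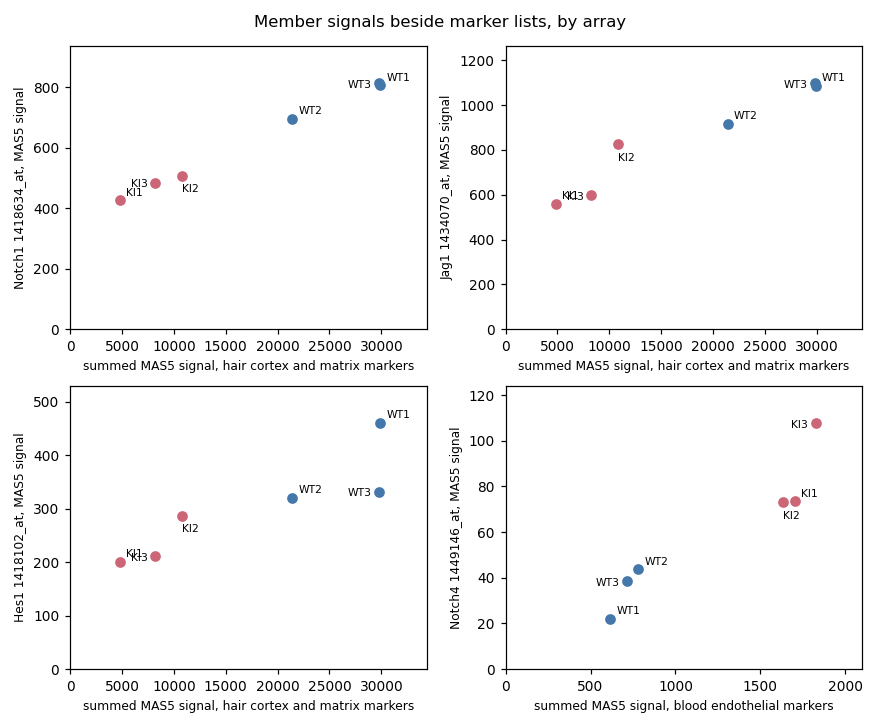
The panels plot 1 member each (MAS5 signal) against the summed signal of a marker list on the 6 arrays, wild-type in blue and knock-in in red. Notch1, Jag1 and Hes1 are set against hair cortex and matrix markers, where knock-in arrays lie lower on both axes, and Notch4 against blood endothelial markers, where they lie higher on both.

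Further genes were compared by pattern. Those whose pattern over the 6 arrays was most like that of Notch1 1418634_at were Stag2, a cohesin subunit, Dsg2, a desmosomal cadherin, and Krt84, a hair keratin, with Pearson's r of 0.9991, 0.9985 and 0.9984. Their log2 differences were -0.43, -0.66 and -2.34. For Notch4 1449146_at they were Lrpap1, the receptor Gpr65 and the cobalamin carrier Tcn2, with r of 0.9963, 0.9954 and 0.9951 and log2 differences of 0.58, 1.26 and 0.51. All 6 points of each correlation share the split into wild-type and knock-in. An r above 0.95 was reached by 1068 of 20227 other probe sets for Notch1 and by 345 for Notch4.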

How the data were processed

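Total RNA from mouse skin was extracted with TRIzol and labelled with biotin, per the labels' protocols. The deposited table holds 1 linear intensity value per probe set and array, the MAS5 signal per the submitters' processing notes, whose version is not given in the sources used here. The 2% trimmed mean of each array was 150, so the authors had already scaled the arrays. The table has no detection calls.

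Genes were named from the platform annotation: 34945 probe sets had 1 symbol, 932 several and 9160 none, and 64 controls were left out. All 10 member symbols matched RefSeq (GRCm38.p6) by gene ID. Of 45037 probe sets, 23153 passed the filter on dim signals. The test was limma's (version 3.58.1, R 4.3.3, lmFit and eBayes with a trend, two-sided) on log2(signal + 16), with Benjamini-Hochberg adjustment and a threshold of 0.05. The offset of 16 understates changes of dim probe sets. The number of arrays limits the precision (median standard error 0.14). The procedure was tested on simulated data. Alternatives changed the offset, filter, normalization, variance prior, weights, probe set choice and replicates.

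The members and lists were chosen with earlier results of these data known. The text names every member, up to 3 genes per other pathway group (smallest p), the 3 brightest of each marker list and the 3 nearest patterns of 2 members. Further genes of the pathway and marker lists were named after their values were seen.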

Additional observations from a re-analysis of the deposited data

How the results depend on the processing

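Of the 17 tested member probe sets, 12 kept their direction or stayed uncalled, on their side of the threshold, in all of the up to 19 alternatives that could be run for each, and 5 lost their call in at least 1. The count of 9 that fell was 4 with median centring, 8 with quantile normalization and 5 with 1 probe set per gene. It was 4 of 9 genes with the mean over probe sets, and it lay between 5 (without knock-in replicate 1) and 8 with an array left out. The 1 that rose, Notch4, gave a count of 0 with the stricter filter and with the mean over probe sets, both of which left it out, and 1 without any single array. Of the other pathway probe sets, the 13 that fell became 5 with median centring, 8 with 1 probe set per gene and 7 with the mean over probe sets, and 7 to 14 with an array left out, at 7 without wild-type replicate 3 and 8 without knock-in replicate 1. The 3 that rose became 9 with median centring, 5 with array weights and 0 with the mean over probe sets, and 1 to 3 with an array left out, at 1 where replicate 3 of either group was left out. Fewer features are tested with 1 value per gene, and the cause of the other changes was not tested.

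Wild-type and knock-in share replicate numbers, but arrays of the same number did not deviate together (r of -0.24, -0.34 and -0.05). Arrays of different numbers gave r from -0.02 to 0.28. Deviations within groups of 3 arrays constrain each other, so this check cannot exclude a pairing. The main test used none. With the replicate block, 6 member probe sets fell and 1 rose, and 7 other pathway probe sets fell and 1 rose. Signals near the array median, as for Notch4, Hey1 and Notch3 1421964_at, limit what can be called.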
